A study of Mus musculus with 97 samples.

Results

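The genes described are 10 transcripts by which white adipocytes are commonly recognised: Adipoq, Lep, Cfd, Retn, Plin1, Plin4, Cidec, Lipe, Fabp4 and Pparg. They were taken by symbol from a table of 51368 genes, and each symbol matched 1 row, so the set is 10 of 51368. The series holds 59 libraries of whole hearts and 38 of flushed jejuna from C57BL/6 mice, 1 per animal, in 14 groups. Whole hearts can carry epicardial fat and jejuna mesenteric fat, but the labels do not say how much fat was left on either organ, so fat content is not a labelled variable.

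All mice were C57BL/6 from the Jackson Laboratory with no other allele named, and all were 11 weeks old at the end of 3 weeks on their chow. Naproxen, an inhibitor of both cyclooxygenases, was mixed into the chow at 1323 ppm for females and 1610 ppm for males, and celecoxib, which is selective for cyclooxygenase-2, at 550 ppm. Tryptophan was injected into the peritoneum daily at 50 mg/kg in the last week. In experiments 2, 3 and 4 the mice without tryptophan were injected with PBS in its place, so every animal there was injected, whereas the mice of experiment 1 were not injected. In experiment 1, hearts came from naproxen (5) and control (5) females and from naproxen (5) and control (5) males. Experiment 2 held hearts of females on naproxen plus tryptophan (8), naproxen (7) and control chow (8), and experiment 3 hearts of tryptophan (8) and control (8) females. Experiment 4 held jejuna of females on naproxen plus tryptophan (7), naproxen (7), tryptophan (8), celecoxib (8) and control chow (8). Each experiment was a separate cohort, and a dissection batch is labelled for experiments 3 and 4.

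White adipocytes hold most of their volume as triglyceride in a large lipid droplet and act as an endocrine cell. The nuclear receptor PPAR gamma (Pparg) drives their differentiation and, with C/EBP alpha, the expression of the hormones and droplet proteins. Adiponectin (Adipoq), leptin (Lep), adipsin (Cfd, complement factor D) and, in the mouse, resistin (Retn) are secreted. Perilipin 1 (Plin1) coats the droplet and holds back lipolysis, CIDEC (also FSP27) enlarges droplets by lipid transfer between them, hormone-sensitive lipase (Lipe) hydrolyses stored diglyceride, and FABP4 carries fatty acids inside the cell. Several of the genes are also used outside fat: Fabp4 by capillary endothelium, Plin4 by striated muscle, Cidec and Lipe in other lipid-handling cells.

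Starts of 9 of the 10 genes were found in RefSeq promoter entries of GRCm38.p6, and the 250 bases before the start are shown for genes that bear on the results. Adipoq is the gene the others are set against below, Lep is a hormone gene with a C/EBP palindrome in its window, and Cidec followed Adipoq in hearts but not in jejuna. Capitals mark matches, on either strand, to CCAAT, read as ATTGG when it lies on the other strand, or to the palindrome TTGCGCAA.
Adipoq, chr16:23146286-23146535, plus strand: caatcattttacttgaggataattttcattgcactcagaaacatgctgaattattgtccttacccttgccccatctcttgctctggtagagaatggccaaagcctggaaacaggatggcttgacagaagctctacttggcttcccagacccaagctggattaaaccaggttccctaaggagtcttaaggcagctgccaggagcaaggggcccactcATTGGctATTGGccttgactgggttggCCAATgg
Lep, chr6:29059971-29060220, plus strand: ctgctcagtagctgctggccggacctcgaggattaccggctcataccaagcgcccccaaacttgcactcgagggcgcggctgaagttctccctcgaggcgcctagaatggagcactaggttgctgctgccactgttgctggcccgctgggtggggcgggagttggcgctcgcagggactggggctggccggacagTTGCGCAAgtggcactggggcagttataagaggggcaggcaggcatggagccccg
Cidec, chr6:113435761-113436010, minus strand: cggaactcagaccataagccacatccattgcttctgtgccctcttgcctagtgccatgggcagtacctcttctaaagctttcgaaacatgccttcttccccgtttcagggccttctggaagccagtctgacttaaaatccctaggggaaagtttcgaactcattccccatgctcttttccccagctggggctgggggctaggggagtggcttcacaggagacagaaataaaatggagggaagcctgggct
Cidec, chr6:113434765-113435014, minus strand: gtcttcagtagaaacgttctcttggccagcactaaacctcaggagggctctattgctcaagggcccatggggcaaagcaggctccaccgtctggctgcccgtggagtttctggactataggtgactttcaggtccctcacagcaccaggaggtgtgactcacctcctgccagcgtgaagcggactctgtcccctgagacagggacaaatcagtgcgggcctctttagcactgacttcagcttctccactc
The Adipoq window holds CCAAT 3 times, at -34 to -30, -27 to -23 and -7 to -3 from the start, and 33.8% of 32851 RefSeq promoter windows of this length hold it at least once. The Lep window holds TTGCGCAA at -55 to -48, a string found in 0.164% of the windows. Neither Cidec window held any of the strings searched, which were the TATA box TATAAA, the box CCAAT, the nuclear receptor half-site AGGTCA and its repeat AGGTCANAGGTCA, the palindrome TTGCGCAA and the E-box CACGTG. The paired half-site AGGTCANAGGTCA was in none of the 13 windows of the 9 genes, and 0.0335% of all windows hold it. Reads were summed per gene, so the start sites of Cidec are not told apart in the counts.

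Library depth, in units of 1e6 estimated counts, spanned 26.3 to 32.47 for the hearts of experiment 1. It spanned 28.42 to 67.14 for those of experiment 2 and 41.4 to 76.36 for those of experiment 3. Jejuna were shallower, with 10.11 to 28.54. Levels are CPM, that is counts per 1e6 of the library size after scaling within an experiment. Hearts were sequenced from poly-A RNA and jejuna from ribosome-depleted RNA, because jejunum RNA had integrity scores below 8, so levels of the 2 tissues are not tested against each other. In bulk tissue, fewer cells of a type and less RNA per cell cannot be told apart. A gene was called where the p-value of edgeR's quasi-likelihood test, adjusted with the Benjamini-Hochberg method across every tested gene, was below 0.05, and all 10 genes passed the filter on low counts in every fit. In jejuna, control replicate 2 was the lowest of its group for Adipoq, Lep, Cfd, Retn and Plin1, and celecoxib replicate 3 the highest of its group for the same genes, and values without them are given where a result rests on them.

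In control jejuna the 10 genes were of very unequal level. Per kilobase of transcript, the median was 29.9 CPM for Fabp4, 17.4 for Cidec, 12.9 for Lipe, 10.7 for Cfd, 4.96 for Plin4, 4.03 for Adipoq, 3.76 for Pparg, 1.55 for Retn, 0.598 for Plin1 and 0.185 for Lep. In control female hearts of experiment 1 the order was another, with Fabp4 at 489 CPM per kilobase, Plin4 at 26.5, Adipoq at 11.9 and Cfd at 10.0, and with Lep last at 0.384. Fabp4 and Plin4 were also first and second in the control hearts of experiment 2 (376 and 73.1 CPM per kilobase) and of experiment 3 (386 and 47.5). Cidec stood above Plin4 in control jejuna and below it in control hearts of experiment 1, where its median was 4.5 CPM per kilobase.

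The hormone genes showed the widest spread between jejuna. Adipoq (ENSMUSG00000022878, chr16:23146536-23158028, plus strand, GRCm38) had a lowest, median and highest level of 0, 3.28 and 18.3 CPM with naproxen plus tryptophan, 0, 0.230 and 2.90 CPM with naproxen, 0, 4.13 and 20.1 CPM with tryptophan, 3.31, 6.28 and 25.6 CPM with celecoxib, and 0.162, 5.20 and 11.7 CPM in controls. Every celecoxib jejunum lay above every naproxen jejunum, while naproxen and control ranges overlapped through control replicate 2 and the highest naproxen libraries. The share of all genes that separated celecoxib from naproxen jejuna in this way was not counted. By group mean, the order was celecoxib (8.14 ± 7.24 CPM, SD, n = 8), tryptophan (5.99 ± 6.74, n = 8), control (5.95 ± 4.10, n = 8), naproxen plus tryptophan (4.64 ± 6.32, n = 7) and naproxen (0.765 ± 1.17, n = 7). Neighbours in this order differed by less than the larger of their SDs, also at the step to naproxen. Without celecoxib replicate 3 the celecoxib mean was 5.65 ± 1.73 CPM (n = 7), below the tryptophan and control means, and without control replicate 2 the control mean was 6.77 ± 3.63 CPM (n = 7), so the order of these 3 groups rests on single libraries; both means were computed after seeing the data. Adipoq was at 0 in 5 jejuna, where the depth allows a level of up to 0.127 to 0.184 CPM (3 counts, counting error only).

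Naproxen gave the lowest levels of the adipokine genes, and none of these differences passed the adjusted test. With naproxen, Adipoq was 0 and 0 CPM in batch 1, 2.90 and 1.96 in batch 2, 0 and 0.274 in batch 3 and 0.230 in batch 4. Control jejuna of the same batches had 2.79 and 3.19, 11.7 and 0.162, 6.53 and 8.90, and 3.88 and 10.4 CPM. In batches 1, 3 and 4 each naproxen library lay below both control libraries, and in batch 2 both lay between the controls. The fitted log2 difference of naproxen from control was -3.45 for Adipoq (SE 0.948, 95% interval -5.31 to -1.59), with an unadjusted p of 0.000921 and an adjusted p of 0.176 in edgeR. Without control replicate 2 it was -3.77 (adjusted p = 0.253). Of all genes tested in this contrast, 0% were called by edgeR and the lowest adjusted p of any gene was 0.0525; of the 10 genes 0 were called.

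The other secreted products followed Adipoq closely. Lep (ENSMUSG00000059201, chr6:29060220-29073877, plus strand) ranged from 0 to 0.274 CPM with naproxen (median 0.0644), against 0.0811 to 1.24 CPM in controls (median 0.604), and its log2 difference was -2.84 (SE 0.928, adjusted p = 0.203). It was at 0 in 6 jejuna, where 3 counts correspond to 0.140 to 0.194 CPM, so most naproxen libraries lie near the limit of detection. Retn (ENSMUSG00000012705, chr8:3655770-3660110, plus strand) ranged from 0 to 1.88 CPM with naproxen (median 0.0859), against 0 to 5.72 CPM in controls (median 2.45), with a log2 difference of -2.70 (SE 0.833, adjusted p = 0.184). Cfd (ENSMUSG00000061780, chr10:79890853-79892655, plus strand) was less uniform on naproxen. Its naproxen libraries had 0, 0.325, 11.2, 4.40, 0, 7.33 and 0.345 CPM, against a lowest, median and highest of 0.0811, 9.84 and 25.9 CPM in controls, and the log2 difference was -2.41 (SE 0.951, adjusted p = 0.237). The groups overlapped: naproxen replicates 1, 2 and 4 had Cfd above 4 CPM, and control replicate 2 lay among the low naproxen libraries. The mitochondrial share of counts was 3.85, 5.04 and 4.97% in naproxen replicates 1, 2 and 4. It was 12.5, 12.1, 8.49 and 7.35% in naproxen replicates 6, 7, 3 and 5. Control replicate 2 had 8.52%, and the other controls 4.22 to 6.57%. A relation of this share to the adipocyte genes was not tested.

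The droplet proteins did not move as a group. Plin1 (ENSMUSG00000030546, chr7:79720218-79732903, minus strand) had a lowest, median and highest level of 0, 0.402 and 2.54 CPM with naproxen, against 0.0811, 2.32 and 6.34 CPM in controls, with a log2 difference of -2.06 (SE 0.788, adjusted p = 0.233). Plin4 (ENSMUSG00000002831, chr17:56100591-56109803, minus strand) had 13.5, 30.9 and 80.3 CPM with naproxen, against 12.7, 28.7 and 47.6 CPM in controls, a log2 difference of 0.25 (SE 0.333, adjusted p = 0.722). Cidec (ENSMUSG00000030278, chr6:113424634-113435760, minus strand) had 14.0, 28.1 and 36.2 CPM with naproxen, against 18.1, 30.6 and 45.1 CPM in controls, a log2 difference of -0.23 (SE 0.298, adjusted p = 0.704). For Plin4 and Cidec the naproxen and control libraries overlapped over most of their range.

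Of the lipid handling genes, Fabp4 (ENSMUSG00000062515, chr3:10204088-10208576, minus strand) had 8.48, 14.5 and 29.4 CPM (lowest, median, highest) with naproxen, against 13.0, 26.8 and 61.2 CPM in controls, a log2 difference of -0.91 (SE 0.426, unadjusted p = 0.0404, edgeR adjusted p = 0.298). Lipe (ENSMUSG00000003123, chr7:25379527-25398710, minus strand) had 39.8, 67.0 and 79.2 CPM with naproxen, against 51.7, 70.7 and 94.5 CPM in controls, a log2 difference of -0.22 (SE 0.160). The regulator gene Pparg (ENSMUSG00000000440, chr6:115360951-115490399, plus strand) had 6.04, 6.85 and 12.4 CPM with naproxen, against 6.59, 8.95 and 12.2 CPM in controls, a log2 difference of -0.16 (SE 0.209). The ranges of all 3 genes overlapped between the groups. In this contrast 6 of the 10 genes were lower at an unadjusted p below 0.05 (Adipoq, Lep, Cfd, Retn, Plin1 and Fabp4), and 7.99% of all genes were. The median log2 difference over the 10 was -1.49, and 0.023 over all genes tested.

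**Figure D1:**
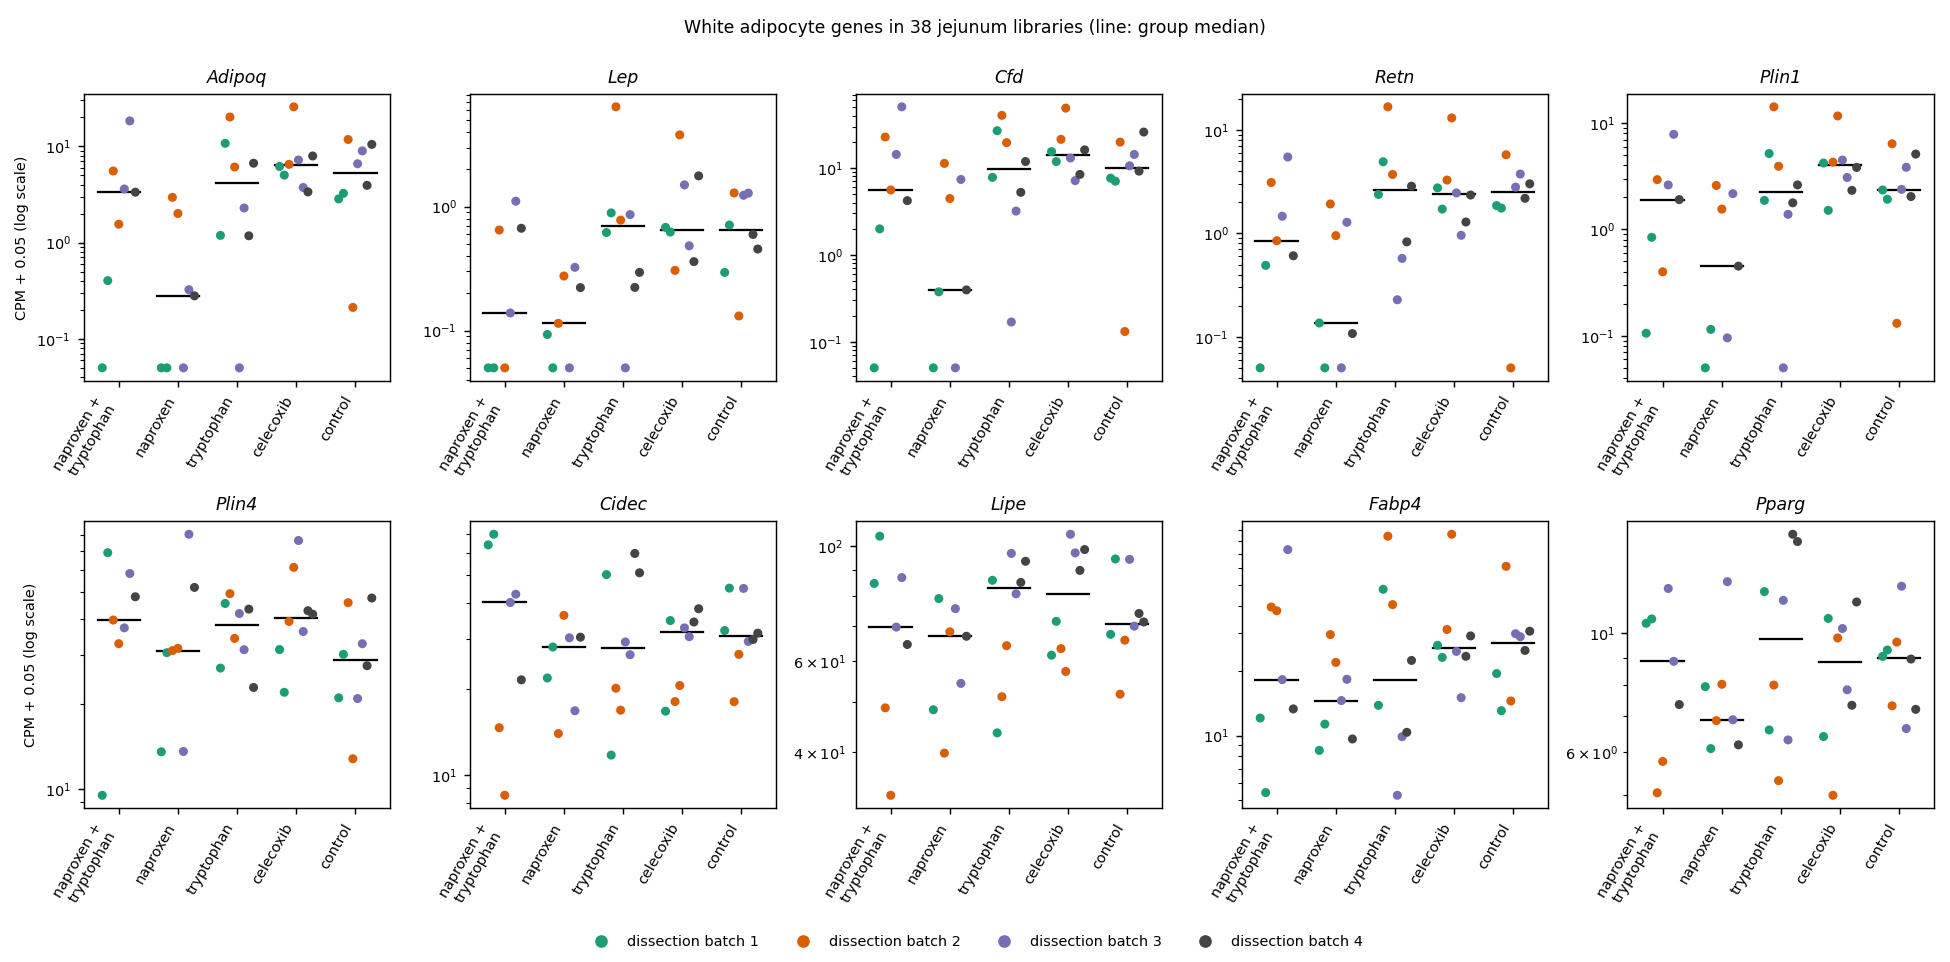
Level of each gene in the 38 jejuna of experiment 4, 1 panel per gene, as CPM + 0.05 on a log axis. Points are libraries coloured by dissection batch and lines are group medians; the Adipoq median is 0.230 CPM with naproxen and 5.20 CPM in controls, while Lipe medians lie between 67.0 and 83.0 CPM in every group.

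Naproxen and celecoxib share the inhibition of cyclooxygenase-2 and were set against each other in the jejunum at their own doses in chow, 1323 and 550 ppm, so the contrast is between diets and not at matched dose. All 10 genes had a negative fitted difference, with a median of log2 -1.76 beside 0.008 over all genes. Of the 10, 7 had an unadjusted p below 0.05 on the lower side, where 7.61% of all genes did. The edgeR calls were 0 of the 10, and 0% of all genes. The log2 difference of naproxen from celecoxib was -3.76 for Adipoq (SE 0.935, adjusted p = 0.101), -3.43 for Lep (SE 0.916, adjusted p = 0.118), -2.77 for Retn (SE 0.822, adjusted p = 0.125), -2.79 for Cfd (SE 0.936, adjusted p = 0.144) and -2.46 for Plin1 (SE 0.781, adjusted p = 0.135). Fabp4 differed by -1.06 (SE 0.427) and Lipe by -0.34 (SE 0.161), and Plin4, Cidec and Pparg by -0.28, -0.04 and -0.11. For Lep the celecoxib range of 0.256 to 3.75 CPM overlapped slightly with the naproxen range, whose highest library had 0.274 CPM. Without celecoxib replicate 3 the Adipoq difference was -3.51 (edgeR adjusted p = 0.178). Without naproxen replicate 6, edgeR called 2 of the 10 genes, Adipoq (log2 -3.55, adjusted p = 0.0457) and Lep (log2 -3.42, adjusted p = 0.0499). DESeq2 called 3 of the 10 here, which were Adipoq, Lep and Retn (adjusted p = 0.00476, 0.0178 and 0.0336), and in naproxen against control 1, Adipoq (log2 -4.06, SE 0.952, adjusted p = 0.0178).

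With celecoxib or tryptophan alone, the fitted difference of Adipoq from control was smaller than its error. Adipoq differed from control by log2 0.31 with celecoxib (SE 0.764, adjusted p = 0.973) and by -0.06 with tryptophan (SE 0.780, adjusted p = 0.999). In both contrasts edgeR called 0 of the 10 genes and 0% of all genes, and 0 of the 10 had an unadjusted p below 0.05, beside 4.36% of all genes with celecoxib and 2.69% with tryptophan. The SE leaves room for an Adipoq difference of more than a log2 unit in either direction.

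When tryptophan was added to naproxen, the genes were higher than on naproxen alone by the fitted values, and again none was called. Adipoq libraries ranged from 0 to 18.3 CPM with the combination (median 3.28), against 0 to 2.90 CPM with naproxen (median 0.230), a log2 difference of 2.93 (SE 0.983, 95% interval 1.00 to 4.86, unadjusted p = 0.00535, edgeR adjusted p = 0.996). Cfd differed by 2.26 (SE 0.944) and Retn by 1.78 (SE 0.847), each at an unadjusted p below 0.05, and Lep, Plin1 and Fabp4 by 1.71, 1.53 and 0.82. All 10 differences were positive with a median of 1.17, beside -0.002 over all genes. Many of the 10 genes vary together, so their signs are not separate observations. On the higher side 3 of the 10 passed an unadjusted p of 0.05, beside 1.54% of all genes, and 0 of the 10 and 0% of all genes were called. Against control the combination differed by log2 -0.52 for Adipoq (SE 0.825, adjusted p = 0.940) and -1.13 for Lep, with 0 of the 10 and 0% of all genes called and 0 of the 10 at an unadjusted p below 0.05, beside 5.98% of all genes. The naproxen by tryptophan interaction was log2 2.99 for Adipoq (SE 1.30, 95% interval 0.44 to 5.53, edgeR adjusted p = 1), where 0 of the 10 and 0% of all genes were called and Adipoq was the 1 gene of the 10 with an unadjusted p below 0.05 on the higher side, beside 1.47% of all genes. These contrasts share the same naproxen or control jejuna and are not separate observations.

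**Figure D2:**
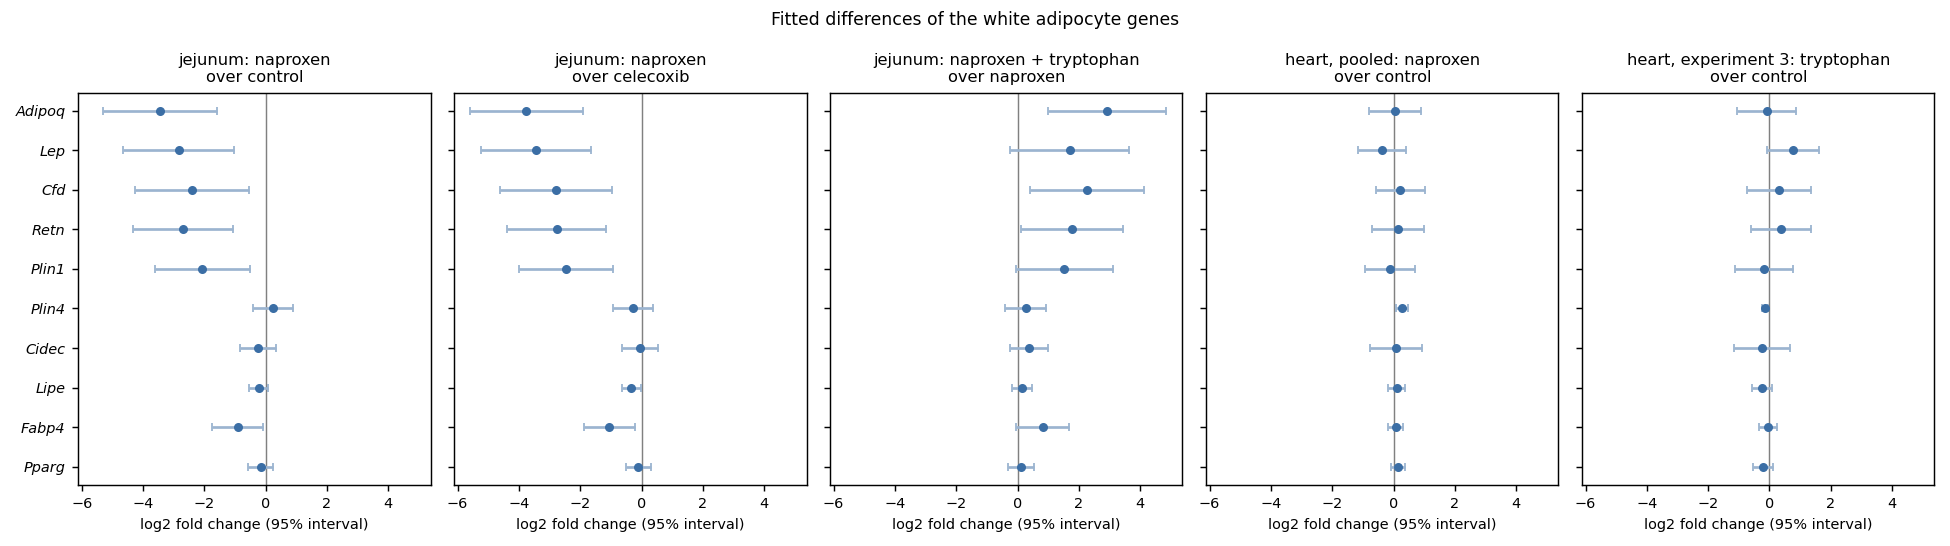
Fitted log2 difference of each gene with its 95% interval in 5 contrasts: naproxen over control, naproxen over celecoxib and naproxen plus tryptophan over naproxen in jejuna, pooled naproxen over control in hearts, and tryptophan over control in hearts of experiment 3. Adipoq lies at -3.45, -3.76 and 2.93 in the jejunum contrasts and at 0.05 and -0.09 in the heart contrasts.

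Other genes that adipocytes or neighbouring cells express were listed as well. Of 30 further white adipocyte genes tested, 0 were called for naproxen against control in the jejunum, where 0% of all genes were. The list's median was log2 -0.19. At an unadjusted p below 0.05, 8 of the 30 were lower, beside 7.99% of all genes. They included Car3, a carbonic anhydrase abundant in adipocytes (log2 -2.28, SE 0.786, adjusted p = 0.214), and Lpl, lipoprotein lipase (log2 -0.99, SE 0.418, adjusted p = 0.263). Of 9 lipogenic genes 0 were called. Beside the same 7.99% of all genes, 2 of the 9 were lower at that unadjusted p, the desaturase gene Scd1 (log2 -1.77, adjusted p = 0.214) and Thrsp (log2 -1.63, adjusted p = 0.195). Of 5 genes for receptors of adiponectin, leptin and insulin 0 were lower or higher at an unadjusted p below 0.05, beside 2802 of all 17714 genes. With tryptophan added to naproxen, 5 of the 30 further genes were higher than on naproxen alone at that unadjusted p, beside 1.54% of all genes. In that contrast 0 of the 30 and 0% of all genes were called.

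Markers of the peritoneal lining and of B cells were measured in the same jejunum contrasts. Of 7 mesothelium markers, 0 were called and 2 were lower with naproxen than in controls at an unadjusted p below 0.05, beside 7.99% of all genes. These were Upk3b (log2 -1.14, adjusted p = 0.233) and Msln (log2 -0.99, adjusted p = 0.314), both named after their values were seen. The summed mesothelium level was 5.62 to 21.5 CPM with naproxen, against 12.5 to 30.2 CPM in controls. The summed level of 7 markers of B cells of lymphoid tissue had a median of 5.19 CPM with naproxen plus tryptophan (1.94 to 12.7), 44.1 CPM with naproxen (5.36 to 80.4), 4.82 CPM with tryptophan (1.30 to 99.0), 6.84 CPM with celecoxib (3.39 to 56.4) and 6.37 CPM in controls (4.02 to 135). The median was thus highest with naproxen, where Adipoq was lowest. Of these 7 markers, 0 passed an unadjusted p of 0.05 for naproxen against control and all 7 did on the lower side when tryptophan was added to naproxen, beside 2.17% of all genes, with a median of log2 -4.04 and 0 of the 7 called. Their part in the levels of the adipocyte genes was not tested.

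In hearts the hormone genes, Plin1 and Cidec varied widely between animals of a group. Adipoq in female hearts of experiment 1 had 31.9, 5.59, 6.74, 9.31 and 4.97 CPM with naproxen, against 3.35, 12.6, 16.1, 15.4 and 28.7 CPM in controls. In males it had 6.85, 30.6, 21.5, 5.43 and 0.876 CPM with naproxen, against 26.9, 2.08, 16.2, 12.2 and 24.6 CPM in controls. The groups overlapped over nearly their whole range, and the fitted log2 differences of -0.38 and -0.33 lie well inside that spread. In experiment 2 Adipoq had a lowest, median and highest level of 2.10, 14.1 and 82.3 CPM with naproxen plus tryptophan, 4.95, 14.3 and 70.2 CPM with naproxen, and 3.00, 13.4 and 57.6 CPM in controls. In experiment 3 it had 2.43, 8.24 and 28.3 CPM with tryptophan, against 2.28, 5.59 and 60.9 CPM in controls. The group medians of experiment 2 lay within 1 CPM of each other, beside a range of more than 50 CPM inside each group.

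Plin4 was the exception in experiment 1. In females it had 229.6, 232, 233, 274 and 277 CPM with naproxen, against 178, 183, 144, 127 and 153 CPM in controls (249 ± 24.1 and 157 ± 23.4, SD, n = 5 each). The female groups did not overlap, and the share of all genes with such a separation was not counted. The log2 difference was 0.67 (SE 0.194, 95% interval 0.29 to 1.05, unadjusted p = 0.00261), but Plin4 was not called (edgeR adjusted p = 0.434). It was the 1 gene of the 10 that was higher at an unadjusted p below 0.05, beside 3.12% of all genes. In males Plin4 had 155, 372, 161, 239 and 258 CPM with naproxen, against 152, 207, 221, 182 and 269.9 CPM in controls, a log2 difference of 0.20 (SE 0.193, adjusted p = 0.842). Sex and naproxen dose go together here, and the test of the difference between male and female responses gave log2 -0.47 (SE 0.273, edgeR adjusted p = 0.759). In experiment 2 naproxen and control hearts overlapped, at 364 to 497 and 340.0 to 497 CPM, with a log2 difference of 0.09 (SE 0.097, adjusted p = 1).

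Over the 17 naproxen and 18 control hearts of experiments 1 and 2, with the females of experiment 1, its males, and experiment 2 fitted as blocks, the log2 difference was 0.29 for Plin4 (SE 0.0998, unadjusted p = 0.00595, adjusted p = 0.378) and 0.05 for Adipoq (SE 0.427, 95% interval -0.79 to 0.89, adjusted p = 1). In that pooled fit edgeR called 0 of the 10 genes and 0.089% of all genes. At an unadjusted p below 0.05, 1 of the 10 was higher, beside 3.81% of all genes. The edgeR calls among the 10 genes were also 0 in each separate naproxen contrast, where 0.0132% of all genes were called in females and 0% in males of experiment 1, 0% for the sex difference in response, and 0% in experiment 2. Control males against control females gave 0 of 10 as well, with 0.152% of all genes called. At an unadjusted p below 0.05, 0 of the 10 were found in males on naproxen (7.69% of all genes), in the sex difference in response (5.06%), in naproxen against control of experiment 2 (3.63%) and between the sexes on control chow (8.22%). DESeq2 called 0 of the 10 in each of these heart contrasts. Among the gene lists, the only gene called in any treatment contrast was Ppargc1a, listed as a brown adipocyte marker and also used by heart muscle as a driver of mitochondrial genes (pooled naproxen, log2 0.69, SE 0.128, adjusted p = 0.0198).

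Tryptophan in hearts gave no called gene of the 10 either. With naproxen plus tryptophan against control in experiment 2, 0 of the 10 and 0.255% of all genes were called. Lep had 0.272 to 3.11 CPM with the combination (median 0.544), against 0.546 to 3.60 CPM in controls (median 2.29), a log2 difference of -1.10 (SE 0.528, unadjusted p = 0.0492, edgeR adjusted p = 0.290). It was 1 of the 10 genes lower at an unadjusted p below 0.05, beside 6.81% of all genes, and its groups overlapped. Against naproxen alone the 10 fitted differences of the combination were all negative with a median of log2 -0.31, beside -0.004 over all genes. In that contrast 0 of the 10 and 0.0933% of all genes were called, with 0 of the 10 and 9.79% of all genes at an unadjusted p below 0.05. In experiment 3, 0 of the 10 and 0% of all genes were called for tryptophan. Plin4 had 204, 247 and 299 CPM there with tryptophan (lowest, median, highest), against 217, 274 and 340 CPM in controls, a log2 difference of -0.15 (SE 0.049, unadjusted p = 0.00882, edgeR adjusted p = 1). It was the 1 gene of the 10 that was lower at an unadjusted p below 0.05, beside 1.32% of all genes. The groups overlapped, but within dissection batches 1, 3 and 4 both tryptophan hearts lay below both controls.

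**Figure D3:**
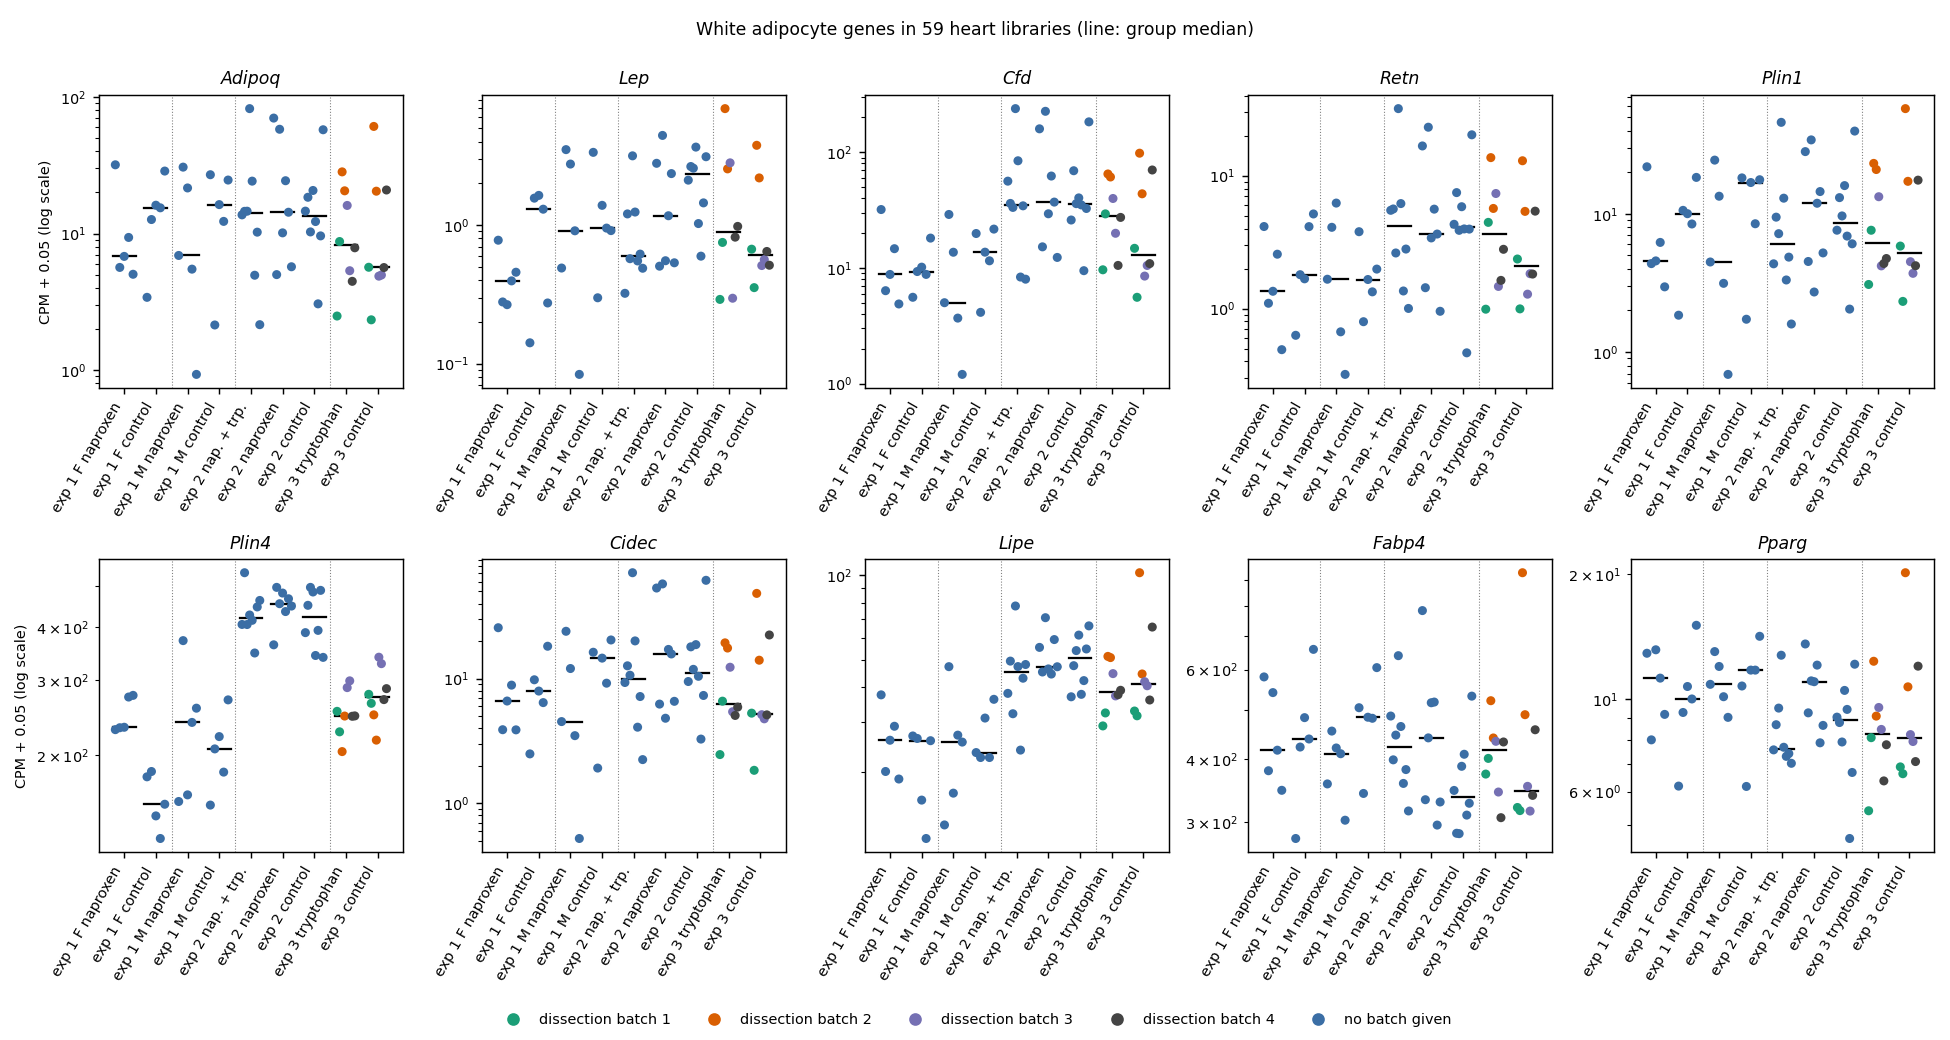
Level of each gene in the 59 hearts of experiments 1, 2 and 3, 1 panel per gene, as CPM + 0.05 on a log axis. Points are libraries, coloured by dissection batch where labelled, and lines are group medians; Adipoq spans 0.876 to 82.3 CPM, while Plin4 spans 127 to 538 CPM.

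The spread between animals of a group was among the widest of all genes for the hormone genes and Plin1. The SD of log2 CPM within groups was 1.46, 1.43 and 1.38 for Adipoq in the hearts of experiments 1, 2 and 3 and 1.99 in jejuna, which put it at the percentiles 98.9, 99.0, 98.6 and 99.4 of all genes tested. Cfd was as variable (1.18, 1.49, 1.31 and 2.34), and so were Retn (1.27, 1.59, 1.28 and 1.72), Plin1 and Lep. Cidec had an SD of 1.46, 1.40 and 1.28 in hearts but 0.72 in jejuna, at percentile 84.9 there. Plin4 ran the other way, with 0.33, 0.19 and 0.19 in hearts and 0.71 in jejuna. Pparg (0.34 to 0.47) and Lipe (0.38 to 0.52) were moderate in all 4 experiments. Fabp4 had 0.33, 0.37 and 0.42 in hearts and 0.99 in jejuna. The highest Adipoq level over the lowest was 36.3-fold in experiment 1, 39.3-fold in experiment 2 and 26.8-fold in experiment 3, and for Plin4 it was 2.93-fold, 1.58-fold and 1.67-fold.

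Across hearts, most of the 10 genes varied together from animal to animal. Correlations used log2 CPM with group means subtracted, 180 relations in all (45 pairs in 4 experiments), p-values from 100000 permutations within groups and Benjamini-Hochberg adjustment over the 180. The smallest p these permutations can give is 1e-05, which adjusts to 3.05e-05. Adipoq and Cidec had a Pearson r of 0.98 in 20 hearts of experiment 1, 0.97 in 23 of experiment 2 and 0.99 in 16 of experiment 3 (permutation p = 1e-05, adjusted p = 3.05e-05 each; Spearman's rho 0.97, 0.96 and 0.94). Without the 2 libraries farthest from the median of Adipoq, r was 0.97, 0.96 and 0.98. Adipoq and Plin1 had r = 0.99, 0.94 and 0.98 (rho 0.99, 0.93 and 0.95), and Adipoq and Cfd 0.96, 0.97 and 0.97 (rho 0.98, 0.93 and 0.98), all at the smallest permutation p. Without the 2 farthest libraries these were 0.98, 0.92 and 0.97 for Plin1 and 0.93, 0.96 and 0.97 for Cfd. Retn had r = 0.89, 0.96 and 0.97 with Adipoq, Lep 0.80, 0.81 and 0.85, Fabp4 0.81, 0.76 and 0.88, and Pparg 0.79, 0.79 and 0.94. Plin4 did not follow, with r = -0.08, -0.24 and -0.44 (permutation p adjusted 0.840, 0.318 and 0.139). Lipe varied, with r = 0.23, 0.56 and 0.89 (permutation p adjusted 0.474, 0.0139 and 3.05e-05).

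In the 38 jejuna the genes divided. Adipoq kept high r with Plin1 (0.93, rho 0.93), Cfd (0.93, rho 0.91), Retn (0.91, rho 0.89), Fabp4 (0.80, rho 0.84) and Lep (0.76, rho 0.74), each at the smallest permutation p and with r of 0.90, 0.90, 0.89, 0.79 and 0.70 without the 2 farthest libraries. Plin4, which did not follow Adipoq in hearts, had r = 0.48 with it (rho 0.44, permutation p adjusted 0.00951, 0.44 without the 2 farthest). Cidec had r = -0.33 (rho -0.35, permutation p adjusted 0.123) and Pparg -0.29 (rho -0.29, permutation p adjusted 0.146). Lipe had r = -0.39 (rho -0.41, permutation p adjusted 0.0462, -0.32 without the 2 farthest). With dissection batch means subtracted too, it was -0.32 (permutation p adjusted 0.120), no longer past the threshold. Cidec instead went with Lipe (r = 0.89, rho 0.82, permutation p adjusted 3.05e-05) and with Pparg (r = 0.74, rho 0.75), and Lipe ran against Fabp4 (r = -0.60, rho -0.54, permutation p adjusted 0.000909). These pairs had group means but not batch means subtracted, and the permutations did not keep to batches. Dissection batch accounted for 37.7% of the variance of Lipe, 31.3% of Cidec, 29.9% of Fabp4 and 17.5% of Pparg. The part of batch in these relations was not tested. Over all 45 pairs, an adjusted p below 0.05 was reached by 27, 34 and 37 pairs in the hearts of experiments 1, 2 and 3 and by 27 in jejuna. Cidec, Lipe and Pparg, although named as white adipocyte genes, thus had no positive relation with Adipoq over the jejuna.

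Dissection batch bears on part of this. Within jejunum batches 1 to 4, where group means were not subtracted, the r of Adipoq was 0.96, 0.95, 0.91 and 0.95 with Cfd, 0.96, 0.97, 0.91 and 0.95 with Plin1, and 0.76, 0.92, 0.75 and 0.89 with Fabp4. It was 0.96, 0.99, 0.89 and 0.93 with Retn and 0.91, 0.83, 0.86 and 0.59 with Lep. With Lipe it was -0.25, -0.01, 0.24 and 0.39, with Cidec -0.41, -0.09, 0.53 and -0.01, and with Plin4 0.43, 0.96, 0.25 and -0.39. Over all jejuna without group means subtracted, r was -0.11 with Lipe and -0.19 with Cidec. With group and batch means subtracted it was -0.32 and -0.20. The values within a batch thus differ from the main ones in method as well as in libraries, and the 2 cannot be told apart. Batches of experiment 3 hold 4 hearts each, too few for values within a batch. With group and batch means subtracted over the 16 hearts, r with Adipoq was 0.97 for Cidec and Plin1 and 0.95 for Cfd and Retn. It was 0.89 for Pparg, 0.77 for Lipe, 0.75 for Fabp4 and 0.57 for Lep (permutation p adjusted 0.0297), against 0.85 for Lep without batch. For Plin4 it was -0.05. Experiments 1 and 2 have no labelled batch.

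**Figure D4:**
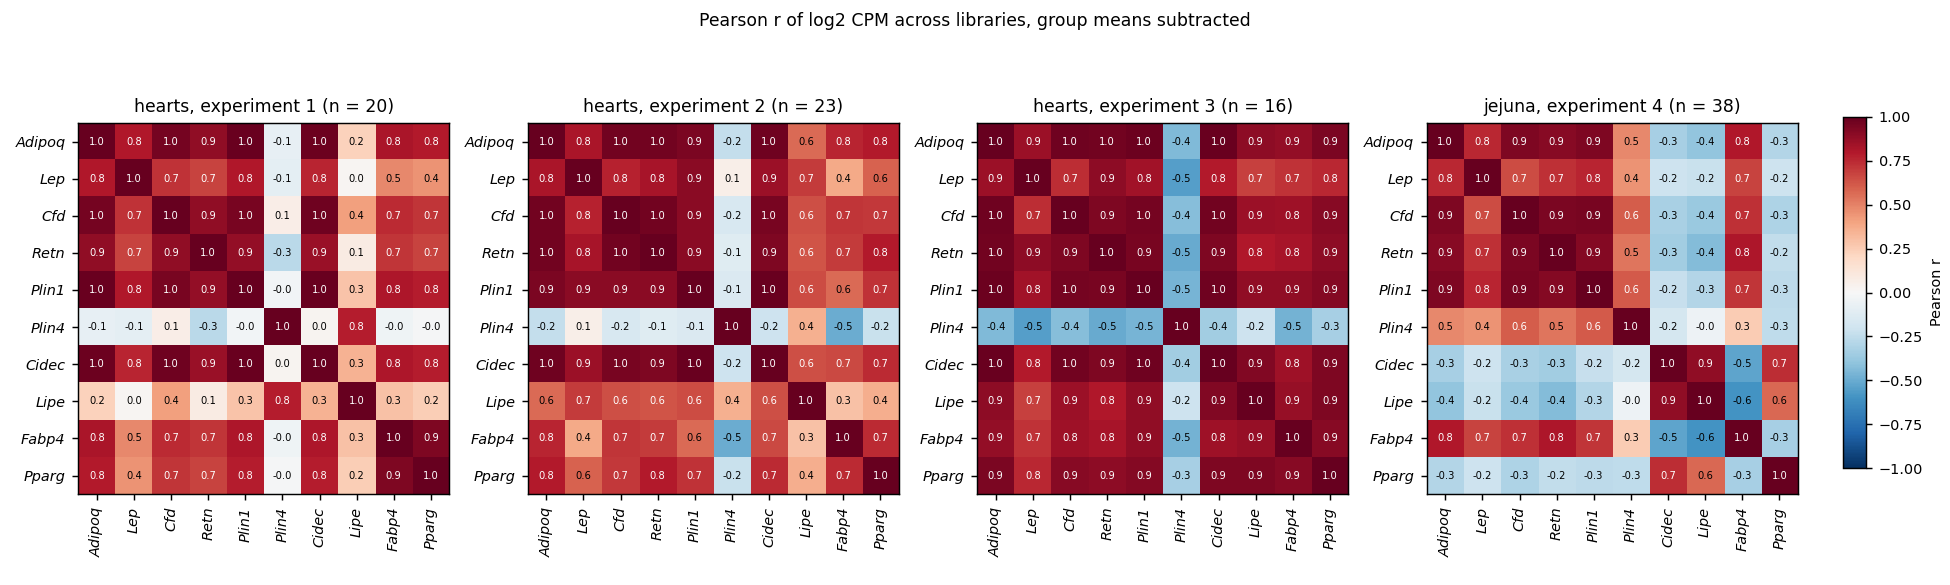
Pearson r between the 10 genes across libraries after group means were subtracted, 1 map per experiment (20, 23 and 16 hearts and 38 jejuna). Cidec is among the genes closest to Adipoq in hearts (0.97 to 0.99) and on the other side of 0 in jejuna (-0.33).

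In experiment 3, dissection batch accounted for 65.4% of the variance of log2 CPM of Adipoq and treatment for 0.0199%. Hearts of batch 2 had 60.9, 20.4, 28.3 and 20.5 CPM of Adipoq, and the batch means were 4.75, 32.5, 7.76 and 9.65 CPM for batches 1 to 4. The means of Plin1 (4.67, 29.7, 6.38 and 7.66 CPM), Cidec (3.99, 24.7, 6.86 and 9.57 CPM) and Cfd (14.8, 66.9, 19.6 and 29.7 CPM) had the same peak in batch 2. Plin4 had its lowest mean there instead (255.9, 229, 314 and 263 CPM, SD 21.8, 22.4, 24.3 and 19.4, n = 4 each). All 10 genes had an unadjusted p below 0.05 for batch, where 16.1% of all genes did. Plin4 was the 1 of the 10 that edgeR called (adjusted p = 0.0292), where 0.774% of all genes were called, and leaving out 1 heart at a time its adjusted p ran from 0.00747 to 0.101, with a call in 6 of 16 fits. Adipoq was not called (adjusted p = 0.137). Each batch of experiment 3 held 2 tryptophan and 2 control hearts.

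In jejuna, batch accounted for 10.8% of the variance of Adipoq and treatment group for 36.5%. Batch 2 again had the highest Adipoq mean, at 2.92, 8.19, 5.06 and 4.59 CPM for batches 1 to 4, and Adipoq was not called (adjusted p = 0.182). Fabp4 differed between batches (18.0, 44.7, 23.7 and 20.4 CPM, edgeR adjusted p = 0.0238), and so did Lipe (74.1, 54.3, 83.1 and 80.5 CPM, adjusted p = 0.0124) and Cidec (37.4, 19.3, 32.3 and 37.0 CPM, adjusted p = 0.0413). Batch 2 was thus the highest for Fabp4 and the lowest for Lipe and Cidec. These 3 were the called genes of the 10, where 19% of all genes were called, and leaving out 1 jejunum at a time Lipe was called in 38, Fabp4 in 35 and Cidec in 20 of 38 fits. Of the 30 further white adipocyte genes 11 were called between jejunum batches, among them G0s2, an inhibitor of triglyceride lipase (adjusted p = 0.00398), Cav1, the main caveolin of adipocytes and endothelium (0.00422), the clearance receptor gene Npr3 (0.00452) and Lpl (0.00541). Markers of some other cell types differed between the same batches: 6 of 9 stroma markers were called, 5 of 9 endothelium markers and 3 of 7 enterocyte markers, beside 19% of all genes. Of 7 mesothelium markers 1 was called, which is not above that share. No smooth muscle marker was called (lowest adjusted p 0.242, Cnn1) and no B-cell marker (lowest 0.370, Cd22). Of the brown adipocyte markers only Ppargc1a was called (adjusted p = 0.0156). The stroma list was led by Pdgfra (adjusted p = 0.00934), the endothelium list by Pecam1 (0.00496) and the enterocyte list by Sis (0.0114). Their part in the batch differences of the adipocyte genes was not tested. Each jejunum batch held 2 animals of every group, except batch 4, with 1 on naproxen plus tryptophan and 1 on naproxen.

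**Figure D5:**
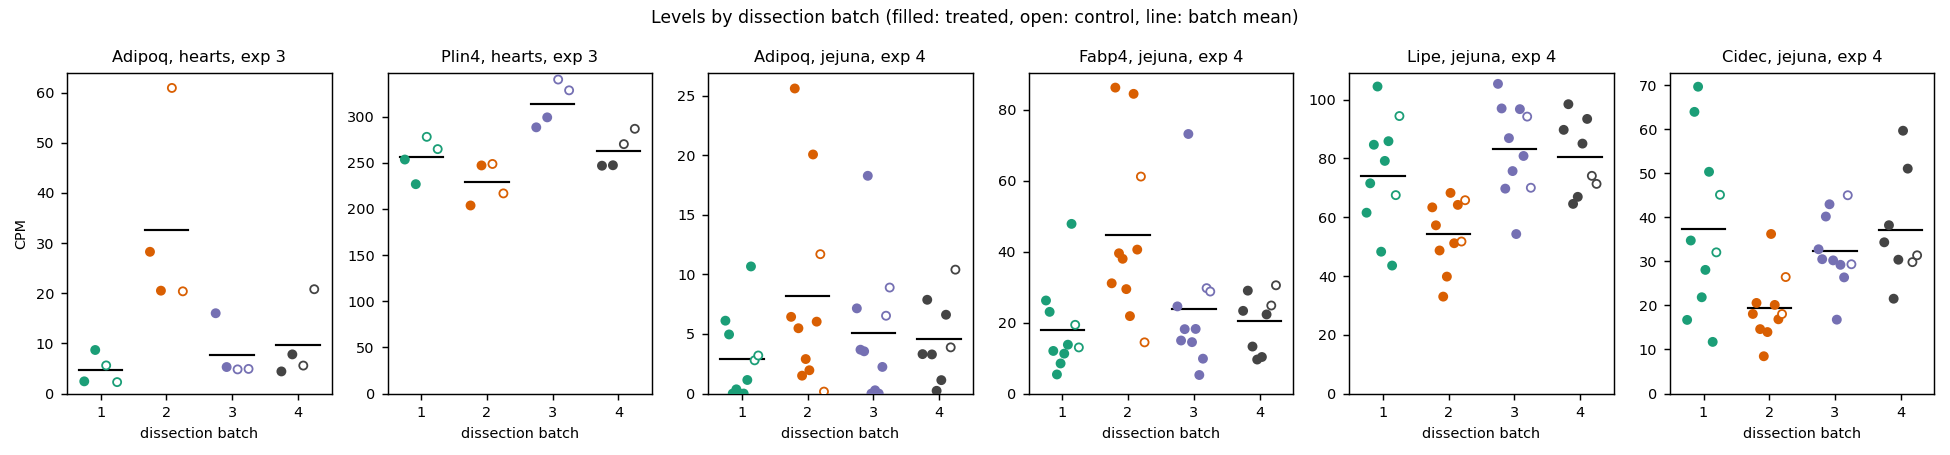
Level in CPM by dissection batch, for Adipoq and Plin4 in the 16 hearts of experiment 3 and for Adipoq, Fabp4, Lipe and Cidec in the 38 jejuna. Filled points are treated animals, open points controls and lines batch means; in hearts Adipoq is highest (32.5 CPM) and Plin4 lowest (229 CPM) in batch 2, and in jejuna Fabp4 is highest (44.7 CPM) and Lipe lowest (54.3 CPM) in batch 2.

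The genes whose level went most closely with Adipoq were sought among the genes tested in a tissue whose mean level reached 1 CPM. In the 59 hearts, group means subtracted, the 10 with the highest r were Car3 (0.98), Ces1f (0.97), Cdo1 (0.97), Lgals12 (0.97), the beta3-adrenergic receptor gene Adrb3 (0.96), Ankef1 (0.95), Arxes2 (0.95), Tmem45b (0.94), Apol6 (0.94) and Car5b (0.94). In the 38 jejuna they were Car3 (0.93), Scd1 (0.91), Lpl (0.81), Thrsp (0.81), Car5b (0.79), Abcd2 (0.77), Glb1l2 (0.76), the fatty acid synthase gene Fasn (0.75), Hp (0.74) and Trf (0.72). Car3 and Car5b were the 2 genes in both sets. An r above 0.5 with Adipoq was found for 16 of 30 further white adipocyte genes and 7 of 9 lipogenic genes in hearts, beside 2.80% of all 12977 genes. In jejuna it was found for 6 of 25 and 5 of 9, beside 3.34% of all 15070 genes. These values describe libraries that share their depth and dissection, and no test was made of them.

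Lpl was 1 of several genes of its list whose relation with Adipoq differed between the tissues. Its r with Adipoq was -0.30 in hearts, where its mean was 4793 CPM, and 0.81 in jejuna, where its mean was 14.8 CPM. In hearts and jejuna r was -0.32 and 0.66 for Gpam and 0.80 and -0.49 for Dgat1, whereas Car3 was high in both. Lpl, Gpam and Dgat1 were singled out after their values were seen. The 5 receptor genes had a median r with Adipoq of -0.16 in hearts and -0.11 in jejuna. Adipor2 went with Adipoq in hearts (r = 0.69) and not in jejuna (r = -0.41), and Lepr had r of 0.10 and 0.45. Adipor2 and Lepr were singled out after their values were seen. In hearts and jejuna r was -0.16 and -0.11 for Adipor1, -0.56 and 0.45 for Cdh13, and -0.46 and -0.39 for Insr.

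Markers of brown adipocytes were present in hearts. Ucp1, the uncoupling protein that defines brown and beige fat, ranged from 0 to 101 CPM in experiment 1 (median 8.53), 0 to 149.6 CPM in experiment 2 (median 9.71) and 0.0618 to 205 CPM in experiment 3 (median 7.21). In jejuna it was at 0 in 35 of 38 libraries and at most 0.0997 CPM. Its r with Adipoq over the 59 hearts was 0.79. Of 10 brown adipocyte markers 4 had an r above 0.5, beside 2.80% of all genes. The median r of these markers was 0.26, and they ran from 0.82 for Otop1 to -0.47 for Prdm16. Kcnk3 (-0.36) and Ppargc1a (-0.21) were negative as well. Ucp1 was singled out after its values were seen. Of 7 mesothelium markers 0 had an r above 0.5 with Adipoq in hearts, and of 4 measured B-cell markers 3 had. Cardiomyocyte markers had a median r of -0.41 in hearts and enterocyte markers -0.38 in jejuna. In hearts and jejuna the median r was 0.42 and 0.38 for smooth muscle markers, 0.25 and 0.39 for stroma markers, and -0.20 and 0.39 for endothelium markers. Over all genes it was -0.06 and 0.05. Of 7 smooth muscle markers 3 had an r above 0.5 in hearts. The part of other cell types in the adipocyte gene levels was not tested.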

How the data were processed

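Expression was measured by RNA sequencing in 59 hearts and 38 jejuna. The authors deposited a table of estimated counts for each gene; the submitters' processing notes name Salmon 1.9.0, R 4.2.2 and GRCm38, and the sources used here do not say how transcripts were joined into genes. Of the deposited values 24.36% were not whole, and they were rounded.

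Samples were grouped by the treatment, sex and experiment labels, and 0 value columns were left unused. Replicate numbers name animals within a group, and p-values measure the spread between them. The 10 genes and the other gene lists were chosen with earlier results of these data known. Genes were filtered with filterByExpr at a minimum count of 10, leaving 15152, 16085, 16541 and 17714 genes in experiments 1 to 4 and 15738 in the pooled hearts. Libraries were scaled by TMM and tested with the robust quasi-likelihood F test of edgeR 4.0.16 in R 4.3.3, with 1 model per experiment over all its groups, dissection batch as a block in experiments 3 and 4, and Benjamini-Hochberg adjustment over all tested genes. Levels are CPM of the scaled library. A level of 0 allows up to 3 counts; this limit covers counting error only. Correlations used log2 CPM with a prior count of 2. Alternatives were DESeq2 1.42.0, voom of limma 3.58.1, RLE scaling, other filters, no batch block, a replicate block and leaving out each library; a filter at a minimum count of 1 was added after seeing the data. No 2 libraries of the same group agreed within counting noise.

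Beyond the 10 genes, the text names the 10 genes per tissue most like Adipoq, up to 4 called genes of a list with the smallest p, and the most abundant gene of a list; exceptions are stated. On simulated counts for naproxen in the jejunum (17720 genes) edgeR recovered 26 of 67 genes changed 1.5-fold, 51 of 67 changed 2-fold and 59 of 66 changed 4-fold, with 4.9% of calls false. For the females of experiment 1 (15205 genes) it recovered 22 of 66, 49 of 67 and 63 of 66, with 4.96% false. The changed genes were drawn at random from all tested genes, and no batch differences were simulated. These rates therefore do not describe genes as variable as Adipoq, and they do not make a missing call an absence of difference. Gene coordinates come from GENCODE vM21 on GRCm38 and promoter windows from RefSeq on GRCm38.p6.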

Additional observations from a re-analysis of the deposited data

Results flagged for a closer look

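In groups of 4 to 10 libraries, the gap of the highest or lowest library to its nearest neighbour was set, on the log2 scale, against the range of the group for each of the 10 genes. Of 140 combinations 13 had a library that stood apart, where chance gives about 7 (1 in 20), and these fell on 8 libraries. No cause was tested.

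Celecoxib replicate 3 of the jejunum, from dissection batch 2, was high in 3 genes: Adipoq at 25.6 CPM (others of its group 3.31 to 7.87), Retn at 13.1 CPM (0.909 to 3.23) and Fabp4 at 86.2 CPM (14.9 to 31.1). Control replicate 2 of the jejunum, also from batch 2, was low in 4 genes: Adipoq at 0.162 CPM (others 2.79 to 11.7), Cfd at 0.0811 CPM (6.99 to 25.9), Retn at 0 CPM (1.71 to 5.72) and Plin1 at 0.0811 CPM (1.87 to 6.34). In both animals several adipocyte genes stood apart in the same direction.

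Of the other jejuna, naproxen plus tryptophan replicate 6 was low in Plin4 at 9.43 CPM (others 32.8 to 69.0), naproxen replicate 3 was high in Pparg at 12.4 CPM (6.04 to 7.98), and tryptophan replicate 3 was low in Plin1 at 0 CPM (1.34 to 14.2). In hearts, naproxen replicate 1 of experiment 2 was low in Plin4 at 364 CPM (436 to 497), control replicate 6 of experiment 2 was low in Retn at 0.414 CPM (3.83 to 20.2), and control replicate 6 of experiment 3 was high in Fabp4 at 930.5 CPM (316 to 489).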

How the results depend on the processing

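Calls among the 10 genes depended mainly on the filter for low counts and on the tool. Without the filter, edgeR called 6 of them for naproxen against control in the jejunum, 6 for naproxen against celecoxib, 5 for naproxen plus tryptophan against naproxen, 5 for the naproxen by tryptophan interaction, 2 for the combination against control, 1 for celecoxib and, in hearts, 3 for tryptophan in experiment 3, where 0 were called with the filter; for dissection batch it called 10 in experiment 3 and 9 in experiment 4, against 1 and 3. In the unfiltered jejunum fit the variance used for Adipoq was 0.62, against its own estimate of 10.1. The median prior degrees of freedom over genes, which set how far variances are drawn to a shared value, were Inf in that fit and 3.8 with the filter. At a minimum count of 1, added after seeing the data, 1 call for dissection batch was lost and none was gained. DESeq2 called 1 gene for naproxen against control, 3 for naproxen against celecoxib and 7 for batch in experiment 3. Over all genes, naproxen against control gave 0 calls in edgeR, 96 in DESeq2, 2 with RLE scaling, 0 in voom and 1182 without the filter, and naproxen against celecoxib 0, 287, 0, 0 and 1784. RLE scaling, voom and no batch block changed no count among the 10 genes.

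Leaving out 1 library at a time gave 0 to 2 called members for naproxen against celecoxib, 0 to 2 for batch in experiment 3 and 1 to 4 for batch in experiment 4, and 0 in every other comparison. The Adipoq difference between naproxen and control ran from -4.04 to -3.17 (log2, adjusted p 0.0899 to 0.404). Group means were subtracted in the main correlations over all jejuna but not within a batch. Within dissection batch 4 of the jejunum, 4 members had an adjusted p below 0.05 for correlation with Adipoq, and 3 values of relations past the threshold over all jejuna changed sign within a batch: Plin4 in batch 4 (r = -0.39) and Lipe in batches 3 and 4 (0.24 and 0.39). Cidec in batch 3 (0.53) and Pparg in batch 4 (0.23), whose relations were not past it, changed sign as well; the cause was not tested. The relation of Adipoq with Lipe also lost its call at a prior count of 0.5 (adjusted p = 0.0528) and with no means subtracted (r = -0.11, adjusted p = 0.577). With the replicate block, 0 of the 10 genes were called in 15 comparisons, and Adipoq differed by log2 -3.24 (SE 1.02, adjusted p = 0.181) between naproxen and control; the sex and batch comparisons have no such fit. Same-numbered libraries correlated above 0.1 in 2 of 10, 8 of 22, 5 of 8 and 31 of 73 pairs in experiments 1 to 4. In experiment 3 their median r was 0.138, against 0.002 for other numbers. There 7 of 16 libraries correlated best with their own number, and some same-numbered hearts shared a dissection batch. Pairing by number was not assumed, and these values do not settle it for experiment 3. Depth limits Lep and Retn most, since 3 counts correspond to as much as 0.194 and 0.241 CPM in jejuna where they read 0.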
